A study of Mus musculus with 19 samples.

Results

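The unfolded protein response was followed in bulk RNA sequencing of 19 mouse livers through 34 genes of the endoplasmic reticulum (ER). They comprise 5 sensors and their effectors, 9 chaperones of the HSP70 and HSP90 systems with their cochaperones, 6 disulfide isomerases and stress-secreted factors, 2 lectin chaperones, 8 genes of ER-associated degradation, and 4 translocon and signal peptidase genes. Members were chosen by gene symbol, with no measured value in the rule, but with earlier results of these data known. All 34 were among the 35976 rows of the counts table, and all 34 were among the 16463 genes that passed the filter on low counts. The livers came from 6 Homo, 6 Het and 7 WT mice, named by their genotype at Pkd1, which encodes polycystin-1. Every mouse, WT included, carried AAV-Cre, a viral vector that delivers Cre recombinase, and every mouse was on the diet and toxin regimen "Western Diet + CCl4" for 3 months, a model of non-alcoholic steatohepatitis (NASH). There was therefore no untreated liver to set the stress response against. The mice were littermates by the series' design text. The sources used here do not state the promoter that drives Cre, the share of cells it reached or the deleted stretch of Pkd1. Each sample title also ends in a mouse number, whose meaning the labels do not give: 8, 10, 15, 16, 17 and 18 are Homo, 4, 6, 7, 14, 19 and 20 are Het, and 1, 2, 3, 9, 11, 12 and 13 are WT.

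The ER lumen folds secreted and membrane proteins. Hepatocytes, which secrete most plasma proteins, carry a large ER. When unfolded proteins accumulate, the chaperone BiP (Hspa5) is drawn away from the membrane sensors. Ern1 (IRE1 alpha) then splices Xbp1 mRNA into the form that encodes an active transcription factor, Eif2ak3 (PERK) slows translation, and Atf6 moves to the Golgi, where it is cut into a transcription factor. Together these branches raise chaperones, disulfide isomerases, the translocation machinery and the degradation system that returns misfolded proteins to the cytosol. Counts per gene do not tell spliced from unspliced Xbp1 mRNA, and sensor activity is set on the protein.

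Many of these genes are known to carry ER stress response elements near their start. This element is a CCAAT box and a CCACG box with 9 bases of any kind between them, and it was searched on both strands. RefSeq promoter windows of GRCm38.p6, running from 250 bases before the gene's start to 50 after it, were matched by symbol for 26 of the 34 genes. The element was found in 9 of these 26 genes, against 39 of all 32851 promoter windows, or 0.119%. Its 10 copies are shown 5′ to 3′ on the strand that reads CCAAT first, with the fixed letters in capitals.
Hspa5: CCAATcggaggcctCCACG
Hsp90b1, upstream copy: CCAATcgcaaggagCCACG
Hsp90b1, downstream copy: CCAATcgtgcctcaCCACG
Dnajc3: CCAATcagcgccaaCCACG
Pdia6: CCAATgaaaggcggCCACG
Creld2: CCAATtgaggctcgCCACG
Calr: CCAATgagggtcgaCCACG
Canx: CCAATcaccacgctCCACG
Syvn1: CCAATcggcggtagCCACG
Derl3: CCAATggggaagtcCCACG

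The nearest copy to a start was that of Syvn1, at bases -44 to -26, and the farthest was the upstream copy of Hsp90b1, at -212 to -194. The copies of Calr, Creld2 and Derl3 and the downstream copy of Hsp90b1 lay on the strand opposite to the gene. A related element, ATTGG and CCACG with 1 base of any kind between them, was found in 2 of the 26 genes, against 12 of all windows, or 0.0365%. It stood at -52 to -42 in Herpud1 and at 8 to 18, past the start, in Dnajb11, and no copy overlapped the longer element. The core of the UPR element, TGACGTGG, was in 0 of the 26 windows, against 0.676% of all windows. Letter matches are descriptions and not measured binding.

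Promoters of 4 genes are printed whole over the 250 bases before the start, 5′ to 3′ on the gene's strand with the element in capitals. They are Hspa5 and Syvn1, which fell with mouse number, Calr, which also fell and whose element is on the opposite strand and so reads CGTGG first, and Herpud1, which carries the related element and has another course along the numbers. The windows are chr2:34771840-34772089 on the plus strand for Hspa5, chr19:6046326-6046575 on the plus strand for Syvn1, chr8:84846932-84847181 on the minus strand for Calr and chr8:94386179-94386428 on the plus strand for Herpud1, all in GRCm38.p6.
Hspa5: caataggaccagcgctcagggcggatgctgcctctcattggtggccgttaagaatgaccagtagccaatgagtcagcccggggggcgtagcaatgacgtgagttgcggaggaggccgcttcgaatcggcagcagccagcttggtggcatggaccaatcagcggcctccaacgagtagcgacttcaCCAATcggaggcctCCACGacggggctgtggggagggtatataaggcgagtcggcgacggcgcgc
Syvn1: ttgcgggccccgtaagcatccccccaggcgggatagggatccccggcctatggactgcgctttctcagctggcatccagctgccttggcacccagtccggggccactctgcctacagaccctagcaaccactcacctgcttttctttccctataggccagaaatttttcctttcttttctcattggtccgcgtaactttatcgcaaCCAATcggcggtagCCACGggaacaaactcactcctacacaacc
Calr: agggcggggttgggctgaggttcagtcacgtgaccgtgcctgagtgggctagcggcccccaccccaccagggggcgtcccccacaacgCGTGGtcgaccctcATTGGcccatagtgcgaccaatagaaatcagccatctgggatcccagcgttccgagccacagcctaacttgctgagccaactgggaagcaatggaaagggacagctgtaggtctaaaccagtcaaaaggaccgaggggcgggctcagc
Herpud1: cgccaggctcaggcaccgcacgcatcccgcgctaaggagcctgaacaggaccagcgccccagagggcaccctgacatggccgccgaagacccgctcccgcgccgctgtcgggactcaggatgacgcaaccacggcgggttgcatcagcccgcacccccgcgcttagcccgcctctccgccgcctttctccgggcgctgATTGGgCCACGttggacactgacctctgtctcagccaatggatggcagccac

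Between 25.8 and 42.1 M counts (mega) were summed per library, and every pair of libraries within a genotype differed by more than counting error. Pkd1 averaged 357 ± 19.7 CPM (counts scaled by library size) in Homo livers, 390 ± 46.2 CPM in Het livers and 405 ± 38.6 CPM in WT livers (SD, n = 6, 6 and 7); counts over the whole gene do not show a deleted stretch. Hepatocyte markers such as albumin were abundant in all libraries, with a summed level of 8 markers of 15200 to 20500 CPM in Homo livers, 16200 to 18700 CPM in Het livers and 15200 to 19800 CPM in WT livers. Summed pancreas acinar markers stood apart in 3 livers, at 184 CPM in Homo mouse 8, 302 CPM in Homo mouse 17 and 147 CPM in Het mouse 19, against 1.2 to 3.18 CPM in the other 16. Plasma cells, which also have a large ER, had low markers. Of 12 listed genes 4 passed the filter, 0 to 2 of those with a row were at 0 in a library, and their summed level was 2.13 to 6.44 CPM in Homo livers, 2.2 to 4.16 CPM in Het livers and 2.29 to 4.31 CPM in WT livers.

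Per kilobase of exon, the members spanned a wide range of levels in WT livers. Herpud1, a membrane protein of ER-associated degradation, had 115 ± 44.5 CPM per kb, P4hb, the main protein disulfide isomerase, 113 ± 9.12 CPM per kb, and Os9, a lectin that recognises misfolded glycoproteins, 108 ± 6.8 CPM per kb (SD, n = 7). These neighbours in the order did not differ beyond their spread. Hspa5 had 68.6 ± 27.2 CPM per kb, at percentile 96.8 of the 14649 tested genes with an exon length. The lowest was Ppp1r15a, the stress-induced subunit of the phosphatase that restores translation, at 1.17 ± 0.222 CPM per kb and percentile 34.9. The sensors Ern1, at 2.46 ± 0.368 CPM per kb, and Eif2ak3, at 3.48 ± 1.33 CPM per kb, were also low, while Atf6 had 11.8 ± 1.19 CPM per kb.

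More of the members were called along the mouse numbers than between genotypes, and this also held for all genes. Of these, edgeR called 1054 on the slope, 79 in Homo against WT, 4 in Het against WT and 30 in Homo against Het livers. In edgeR's quasi-likelihood test of the slope on mouse number, with genotype in the fit, 17 of the 34 genes fell with the number and 0 rose, at adjusted p under 0.05. Of all 16463 genes, 3.23% fell and 3.17% rose. Slopes were below 0 for 31 of the 34 genes, with a median of -0.244 log2 per 10 numbers, against -0.00262 for all genes tested. Levels summed over the 34 genes came to 4725 CPM in WT mouse 1 and 2815 CPM in Homo mouse 18, or 0.47% and 0.279% of the counts. Bulk RNA cannot tell fewer cells of a type from less RNA per cell.

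**Figure D1:**
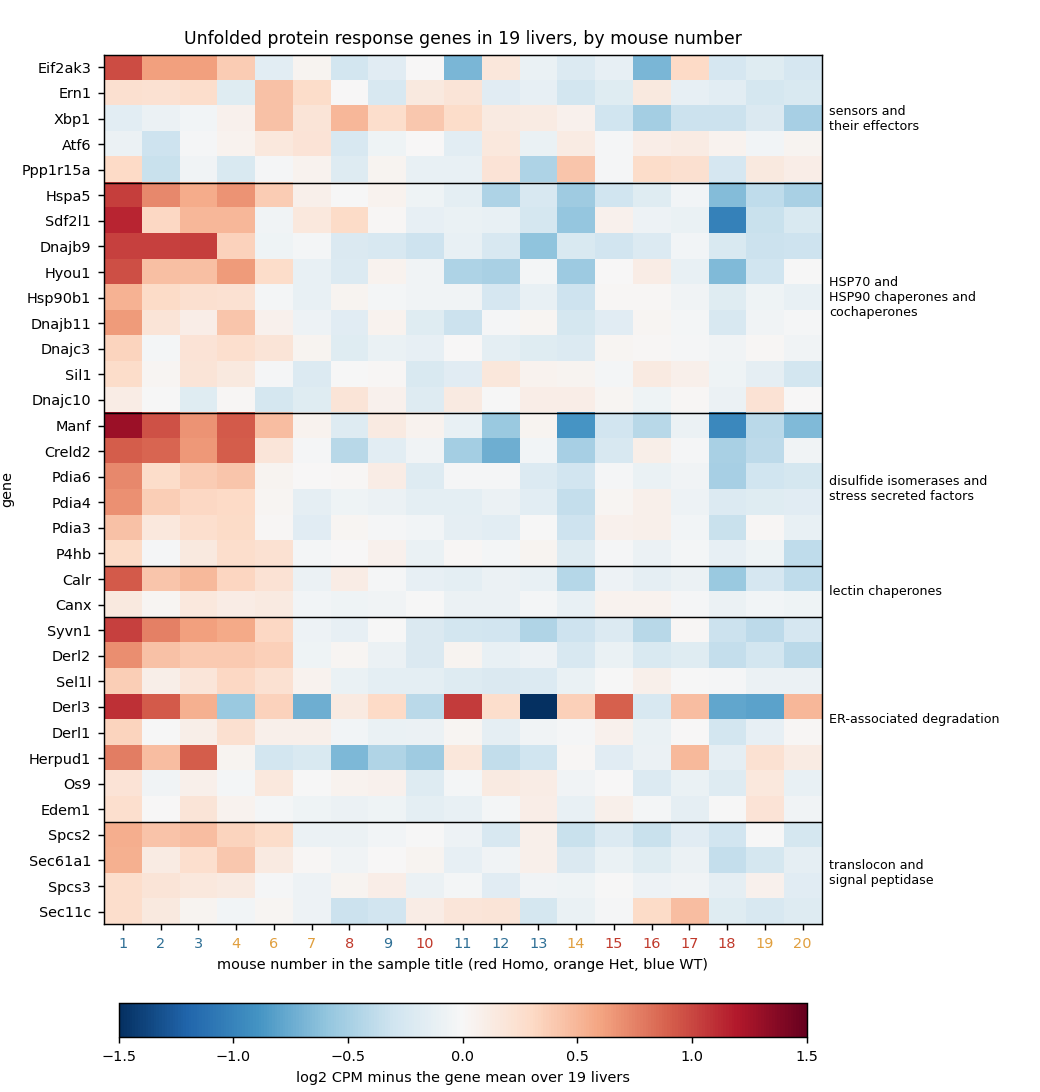
Log2 CPM of each of the 34 genes (rows, grouped by role) minus the gene's mean, in each of the 19 livers (columns, ordered by mouse number, with the number's colour giving the genotype). Red cells gather in mice 1 to 6, most of all in the chaperone, disulfide isomerase and degradation groups, and mouse 1 was the highest of the 19 livers for 25 of the 34 genes.

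Among the sensors and their effectors, 1 of 5 genes fell. Ern1, the kinase and RNase that splices Xbp1, had a slope of -0.29 ± 0.08 log2 per 10 numbers (SE; adjusted p = 0.0452 by edgeR), and it passed the threshold in only 4 of the 19 fits that left out a library. Eif2ak3 read 33.7, 26.3 and 26.1 CPM in WT mice 1 to 3, above every other liver, the highest of which was Het mouse 4 at 22.2 CPM. Its slope of -0.43 ± 0.15 did not pass (adjusted p = 0.0899 by edgeR). Atf6 lay between 92.3 and 132 CPM in all 19 livers, with a slope of 0.04 ± 0.06 (adjusted p = 0.784 by edgeR).

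Xbp1 did not follow the chaperones. It read 117, 123 and 127 CPM in WT mice 1 to 3 and 137, 177 and 150 CPM in Het mice 4, 6 and 7. Homo mouse 8 had the highest value, 185 CPM, with 158 CPM in WT mouse 9 and 173 CPM in Homo mouse 10. In mice 15 to 20 it lay between 91.8 and 113 CPM, below all other livers. A straight line over all numbers therefore had a slope of only -0.29 ± 0.12 (adjusted p = 0.186 by edgeR). Within mice 8 to 20 the slope was -0.91 ± 0.12 (adjusted p = 0.0182 by edgeR), and Xbp1 was then the only member called, where 0.0352% of all genes fell.

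In the group of HSP70 and HSP90 chaperones and cochaperones, 5 of 9 genes fell. Hspa5, the HSP70 chaperone of the lumen, read 480, 384 and 344 CPM in WT mice 1 to 3 and 372, 304 and 246 CPM in Het mice 4, 6 and 7. The 13 livers with numbers 8 to 20 ran from 149 to 243 CPM with a median of 198, so mice 1 to 7 were all above them. The slope was -0.74 ± 0.10 (adjusted p = 0.000356 by edgeR).

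Dnajb9, a J-domain cochaperone of BiP that restrains Ern1, had a sharper course. It read 51.3, 51.3 and 51.5 CPM in WT mice 1 to 3. Het mouse 4 followed at 31.9 CPM, and the other 15 livers lay between 16.4 and 24.5 CPM. WT mice 1 to 3 were above all others, by 2.5-fold on average over WT mice 9 to 13. Its slope over all livers was -0.60 ± 0.15 (adjusted p = 0.0192 by edgeR).

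Hyou1, a large HSP70 relative that reloads BiP with ATP, read 353, 247 and 248 CPM in WT mice 1 to 3, and 114 to 195 CPM in mice 8 to 20. Its slope was -0.52 ± 0.13 (adjusted p = 0.0232 by edgeR). Sdf2l1, a stress-induced partner of the J proteins, had a slope of -0.61 ± 0.13 (adjusted p = 0.00885 by edgeR), and Hsp90b1, the HSP90 of the ER, one of -0.25 ± 0.06 (adjusted p = 0.0255 by edgeR). Dnajc3, Dnajb11, Sil1 and Dnajc10, the other cochaperones, did not pass, with slopes of -0.22 to 0.09 and adjusted p-values from 0.133 to 0.524.

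Of the 6 disulfide isomerases and secreted factors, 5 fell, and the sixth, Pdia3, had an adjusted p of 0.0791 by edgeR. Manf, a small secreted protein that BiP retains in the ER, had the steepest slope of the 34 genes, -0.90 ± 0.14 (adjusted p = 0.000935 by edgeR). It read 34.8, 27.7 and 22.8 CPM in WT mice 1 to 3 and 27.1, 19.7 and 14.9 CPM in Het mice 4, 6 and 7, against 7.28 to 15.7 CPM in mice 8 to 20. Only Het mouse 7 overlapped that range.

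Creld2, another secreted ER stress protein, read 11.5, 11.2 and 9.65 CPM in WT mice 1 to 3, and its slope was -0.65 ± 0.16 (adjusted p = 0.0208 by edgeR). Het mouse 4 also had 11.5 CPM, while mice 8 to 20 stayed between 3.64 and 6.52 CPM. The isomerases had shallower slopes. Pdia6 had a slope of -0.40 ± 0.07, Pdia4 one of -0.32 ± 0.08 and P4hb one of -0.20 ± 0.05, with adjusted p-values of 0.00277, 0.0197 and 0.0237 by edgeR.

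**Figure D2:**
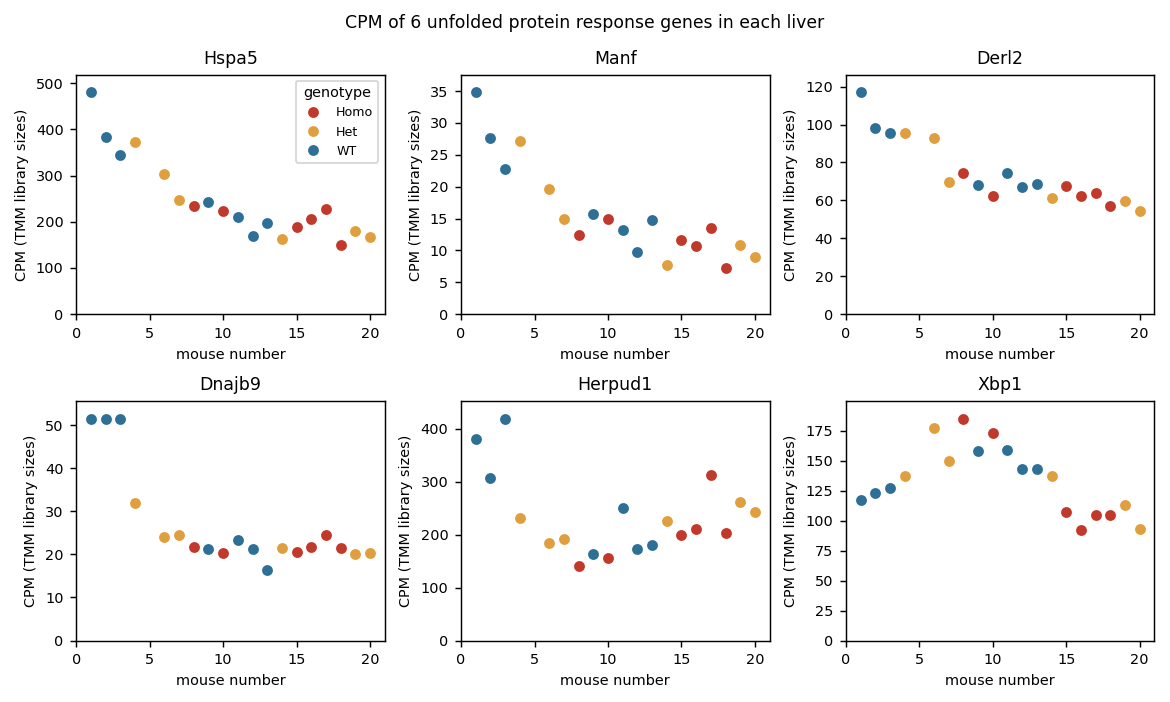
CPM of 6 genes (vertical axes, from 0) against mouse number (horizontal axes), with 1 point per liver coloured by genotype. Hspa5, Manf and Derl2 decline through mice 1 to 7, Dnajb9 is near 51 CPM in mice 1 to 3 alone, Herpud1 dips in mice 6 to 10, and Xbp1 peaks at 185 CPM in mouse 8.

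The lectin chaperones bind monoglucosylated glycoproteins and hold them for folding. Soluble Calr fell, with a slope of -0.50 ± 0.08 (adjusted p = 0.00132 by edgeR); it read 278, 196 and 206 CPM in WT mice 1 to 3, above all other livers. Membrane-bound Canx had a slope of -0.11 ± 0.04 and did not pass (adjusted p = 0.104 by edgeR).

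ER-associated degradation had 3 of 8 genes that fell: Syvn1 (HRD1), the ubiquitin ligase of the export channel, Sel1l, its partner, and Derl2, a channel protein. Syvn1 read 140, 116 and 105 CPM in WT mice 1 to 3, above all others, and 102, 84.8 and 65.3 CPM in Het mice 4, 6 and 7. In mice 8 to 20 it lay between 50.3 and 69.6 CPM, and its slope was -0.63 ± 0.11 (adjusted p = 0.00246 by edgeR). Derl2 had a slope of -0.46 ± 0.06 (adjusted p = 0.000356 by edgeR) and Sel1l one of -0.24 ± 0.06 (adjusted p = 0.0227 by edgeR). The other 5, Derl1, Derl3, Os9, Edem1 and Herpud1, did not pass.

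Herpud1 differed in shape. It read 381, 307 and 419 CPM in WT mice 1 to 3, dropped to 140 to 191 CPM in mice 6 to 10, and lay between 199 and 312 CPM in mice 15 to 20. WT mice 1 to 3 were above every other liver except Homo mouse 17, which had 312 CPM and exceeded WT mouse 2. A linear slope of -0.07 ± 0.18 (adjusted p = 0.881 by edgeR) does not describe such a course.

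In the translocon and signal peptidase group, Sec61a1, the pore of the translocon, and Spcs2, a subunit of the peptidase that removes signal sequences, fell, 2 of 4 genes. Their slopes were -0.31 ± 0.06 (adjusted p = 0.00408 by edgeR) and -0.36 ± 0.07 (adjusted p = 0.00543 by edgeR). Spcs3 and Sec11c, subunits of the same peptidase, had slopes of -0.14 ± 0.05 and -0.07 ± 0.10, with adjusted p-values of 0.0832 and 0.787 by edgeR.

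Among WT and Het livers, many members were higher at the low numbers. WT mice 1 to 3 were all above WT mice 9 to 13 for 22 of the 34 genes, against 8.78% of all genes, and above all 16 other livers for 8 of the 34, against 2%. Het mice 4 to 7 were all above Het mice 14 to 20 for 18 of the 34 genes, against 9.72% of all genes. Mouse 1 was the highest liver for 9.02% of all genes. The mean of WT mice 1 to 3 over that of WT mice 9 to 13 was 2.24-fold for Creld2, 2.13-fold for Manf, 2.08-fold for Syvn1 and 1.96-fold for Hspa5. The mean of Het mice 4 to 7 over that of Het mice 14 to 20 was 2.23-fold for Manf and 1.81-fold for Hspa5.

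The number of calls on the slope depended on which livers were left out. Without mice 1 to 3, 8 members fell, where 1.02% of all genes did; 7 of these were among the 17 (Hspa5, Manf, Calr, Pdia6, Syvn1, Derl2 and Sec61a1) and the other was Xbp1. Of the members that lost the call, P4hb at -0.23 ± 0.06 and Ern1 at -0.27 ± 0.11 stayed close to their slopes in all livers. The others that lost it had shallower slopes than in all livers, such as Dnajb9 at -0.23 ± 0.09, Hsp90b1 at -0.13 ± 0.06 and Pdia4 at -0.17 ± 0.07. The median slope over the 34 genes was -0.153 without mice 1 to 3 and -0.0418 within mice 8 to 20, against -0.244 in all livers. Without Homo mouse 8, Homo mouse 17 and Het mouse 19, whose pancreas markers stood apart, 18 members were called, among 744 called genes. Leaving out single livers gave 11 to 18 called members, with 11 without WT mouse 1 and also 11 without Het mouse 4.

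Among the 9 genes with an ER stress response element in the promoter window, 6 fell and all 9 slopes were below 0, with a median of -0.397. With Herpud1 and Dnajb11 added, which carry the related element, 6 of 11 genes fell, with a median slope of -0.251. Among the 15 genes with a window and none of the 3 motifs, 8 fell and 13 slopes were below 0, with a median of -0.289. Of the 8 genes without a window, 3 fell, with a median of -0.148. Canx, Derl3 and Dnajc3 carried the element and did not pass. Herpud1 and Dnajb11, with the related element, did not pass either.

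Slopes differed between genotypes for 4 of the 34 genes in edgeR's test of the interaction, against 0.62% of all genes. For Dnajb9 the slope was 0.10 ± 0.16 in Homo, -0.32 ± 0.09 in Het and -1.39 ± 0.12 in WT livers (adjusted p of the difference = 0.00152 by edgeR). For Syvn1 the slopes were -0.07 ± 0.16, -0.48 ± 0.09 and -1.15 ± 0.12 in Homo, Het and WT livers (adjusted p of the difference = 0.025 by edgeR).

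The other genes with a called difference were Xbp1 and Herpud1. For Xbp1 the slope was -0.99 ± 0.16 in Homo, -0.40 ± 0.10 in Het and 0.29 ± 0.12 in WT livers (adjusted p of the difference = 0.0106 by edgeR). Herpud1 ran the other way, with 0.86 ± 0.26 in Homo, 0.20 ± 0.15 in Het and -0.93 ± 0.18 in WT livers (adjusted p of the difference = 0.0156 by edgeR). Of 19 fits that each left out a library, the difference was called in 19 for Dnajb9, 18 for Xbp1, 17 for Herpud1 and 14 for Syvn1.

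By genotype, 1 member fell in Homo livers (Xbp1), 4 in Het livers (Hspa5, Manf, Syvn1 and Derl2) and 17 in WT livers, where 0.0364%, 0.431% and 2.3% of all genes fell. These slopes share 1 estimate of the spread; in fits of Homo livers only or Het livers only, edgeR called 0 members. Homo livers carry numbers 8 to 18, Het livers 4 to 20 and WT livers 1 to 13, so genotype and range of numbers cannot be told apart here. Without WT mouse 1 the difference was called for 1 member, without Homo mouse 8 for 2, and without Homo mouse 8, Homo mouse 17 and Het mouse 19 for 1. In that last fit, the difference was called for 24 of all genes.

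**Figure D3:**
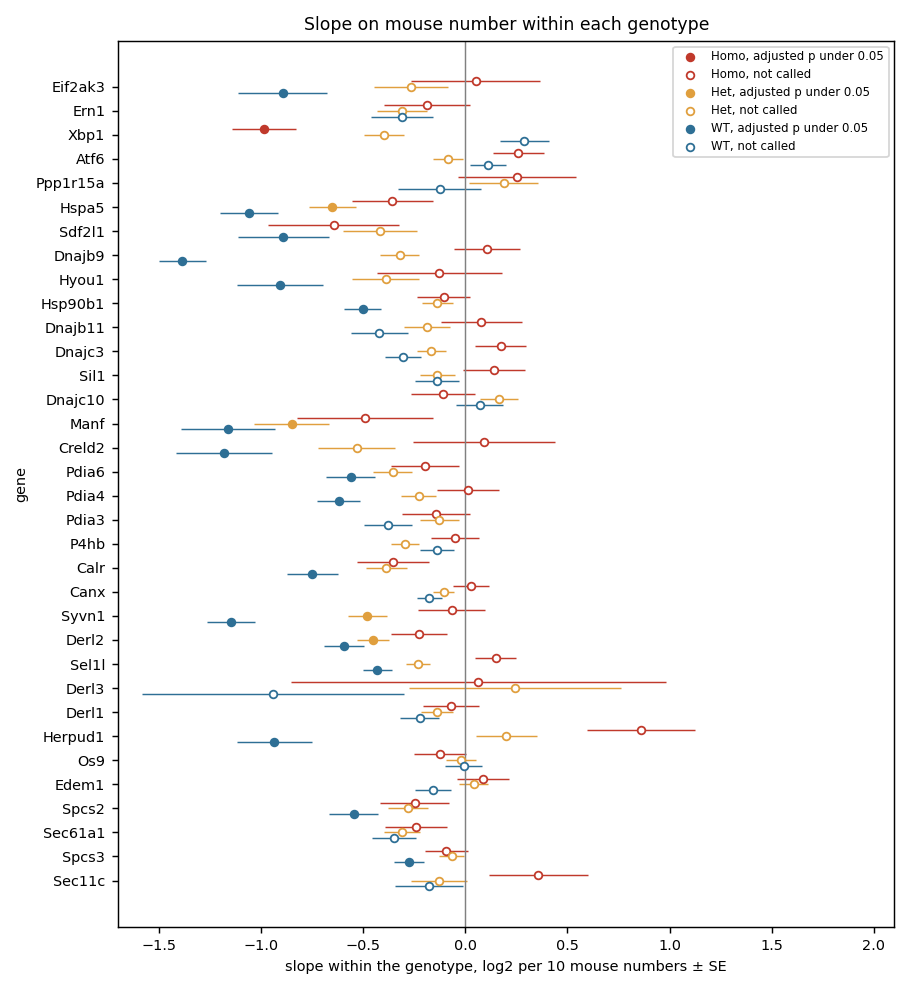
Slope on mouse number (log2 per 10 numbers, horizontal axis, with SE bars) of each of the 34 genes within Homo, Het and WT livers. Filled points have an adjusted p under 0.05 from edgeR; 17 are WT, 4 Het and 1 Homo, and Dnajb9, Syvn1, Herpud1 and Xbp1 show the widest separations that passed the test of the difference.

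Between genotypes, 0 of the 34 genes passed in Homo against WT livers, 0 in Het against WT livers and 0 in Homo against Het livers with edgeR, DESeq2 or limma-voom. Of all genes, edgeR called 0.48%, 0.0243% and 0.182%. DESeq2 called 305, 28 and 102 genes, and limma-voom 91, 4 and 16. At an unadjusted p under 0.05, edgeR gave 10, 2 and 0 of the 34 members (29.4%, 5.88% and 0%), against 12.9%, 8.84% and 6.29% of all genes. Log2 fold changes were below 0 for 31, 29 and 29 of the 34 genes, with medians of -0.198, -0.155 and -0.0898, against 0.00191, -0.00428 and -0.00117 over all genes. The 3 comparisons share libraries.

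The smallest p in Homo against WT livers belonged to Os9, which had a lowest, median and highest level of 234, 245 and 281 CPM in Homo livers, against 259, 285 and 310 CPM in WT livers. The ranges overlapped, and the log2 fold change was -0.17 ± 0.06 (adjusted p = 0.248 by edgeR). Spcs2 had 16.5, 18.4 and 20.9 CPM in Homo livers, against 17.7, 22.1 and 30.4 CPM in WT livers, with a log2 fold change of -0.37 ± 0.14 (adjusted p = 0.251 by edgeR).

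For Dnajb9 the levels were 20.2, 21.6 and 24.5 CPM in Homo livers, 20.1, 22.7 and 31.9 CPM in Het livers and 16.4, 23.3 and 51.5 CPM in WT livers. Its log2 fold change was -0.64 ± 0.24 in Homo against WT livers (adjusted p = 0.275 by edgeR) and -0.51 ± 0.24 in Het against WT livers (adjusted p = 0.561 by edgeR). The genotypes overlapped, and the high WT values were those of mice 1 to 3. Hspa5 had 149, 215 and 234 CPM in Homo livers, 162, 213 and 372 CPM in Het livers and 170, 243 and 480 CPM in WT livers, with a log2 fold change of -0.50 ± 0.24 in Homo against WT livers (adjusted p = 0.381 by edgeR).

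In Het against WT livers, Atf6 had a log2 fold change of 0.17 ± 0.07 (adjusted p = 0.525 by edgeR) and Calr one of -0.33 ± 0.17 (adjusted p = 0.592 by edgeR). In Homo against Het livers the smallest p-values were those of Os9, Derl1, a channel protein like Derl2, and Sec11c, a catalytic peptidase subunit. Their log2 fold changes were -0.12 ± 0.06, -0.12 ± 0.08 and 0.19 ± 0.13, with adjusted p-values of 0.838, 0.908 and 0.909 by edgeR.

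With mouse number in the fit, the genotype differences centred near 0. In Homo against WT livers, 17 genes were below 0 and 17 above, with a median log2 fold change of -0.00664; edgeR called 0, against 0.231% of all genes, and 1 member (2.94%) had an unadjusted p under 0.05, against 7.91% of all genes. In Het against WT and Homo against Het livers the medians were -0.0211 and -0.0181, with 0 called, against 0.0304% and 0.243% of all genes, and 1 and 0 members at an unadjusted p under 0.05, against 7.16% and 6.77% of all genes. The log2 fold change of Dnajb9 in Homo against WT livers became -0.11 ± 0.22, and that of Hspa5 0.08 ± 0.14, while Os9 stayed at -0.15 ± 0.07. Among mice 1 to 7 alone, Dnajb9 at -0.94 ± 0.12 and Herpud1 at -0.87 ± 0.14 were lower in the 3 Het than in the 3 WT livers (adjusted p = 0.0316 and 0.0494 by edgeR), where 0.191% of all genes were; there all WT numbers are below all Het numbers, so the genotypes and the numbers cannot be told apart.

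**Figure D4:**
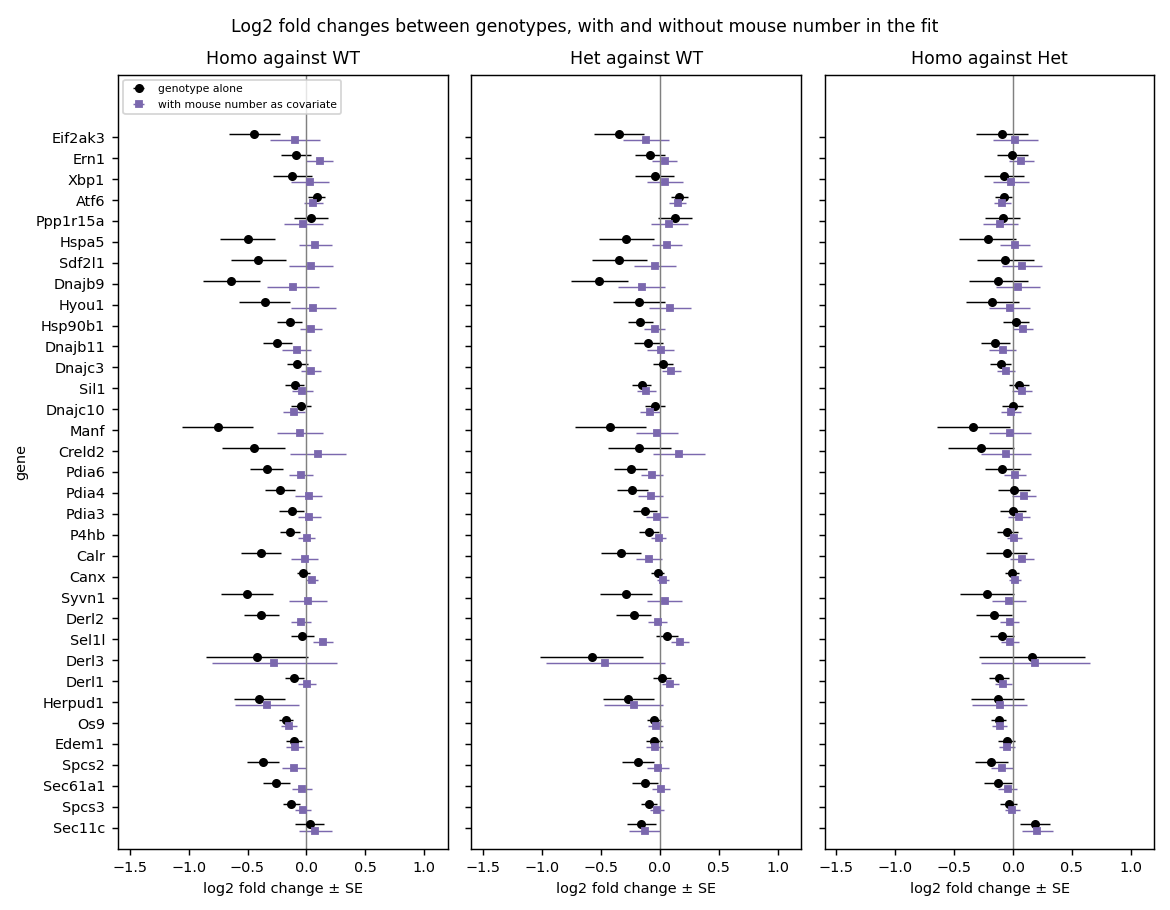
Log2 fold changes (horizontal axes, with SE bars) of the 34 genes in the 3 genotype comparisons, with genotype alone (black circles) and with mouse number in the fit (purple squares). Most black circles lie left of 0, with a median of -0.198 in Homo against WT livers, and the purple squares scatter around 0, with a median of -0.00664; no gene passed in either fit.

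Other genes of the secretory pathway were also called along the mouse numbers, most of them lower. The shares over all genes, for these lists and those below, were 3.23% lower and 3.17% higher. Of 15 further translocon and signal peptidase genes, 7 fell and 0 rose, among them Ssr2 at -0.31 ± 0.06 and Ssr4 at -0.29 ± 0.06, subunits of the translocon-associated complex (adjusted p = 0.00399 and 0.00428 by edgeR). Of 13 genes of glycosylation and glycan-guided folding, 7 fell and 0 rose, among them Mogs, the glucosidase that starts glycan trimming, at -0.35 ± 0.07, and Krtcap2, an oligosaccharyltransferase subunit, at -0.32 ± 0.07 (adjusted p = 0.00442 and 0.0101 by edgeR).

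Of 23 other ER folding enzymes and cofactors 4 fell and 0 rose, with Ero1lb, which oxidises the disulfide isomerases, at -0.51 ± 0.08 and Txndc11 at -0.54 ± 0.09 (adjusted p = 0.00129 and 0.00186 by edgeR). Of 22 other degradation genes 2 fell and 0 rose, namely Ubxn4 at -0.30 ± 0.06 and Vcp, the ATPase that pulls substrates out of the membrane, at -0.44 ± 0.09 (adjusted p = 0.00431 and 0.00727 by edgeR). Of 23 genes of ER to Golgi traffic, 3 fell and 2 rose, with the cargo receptor Tmed3 at -0.60 ± 0.09 and the coat protein Sec23b at -0.50 ± 0.08 (adjusted p = 0.000735 and 0.000935 by edgeR).

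Among 19 genes of the PERK branch and ER stress transcription factors, 1 fell and 1 rose, near the shares of all genes (3.23% and 3.17%). Creb3l2, a membrane-bound transcription factor related to Atf6, read 52.5, 56.2 and 49.7 CPM in WT mice 1 to 3 and 16.8 to 33.8 CPM in the other 16 livers, with a slope of -0.70 ± 0.14 (adjusted p = 0.00711 by edgeR). Ppp1r15b, the constitutive counterpart of Ppp1r15a, had a slope of 0.21 ± 0.05 (adjusted p = 0.0117 by edgeR).

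Genes outside the ER also moved with the numbers, and their part in the ER result was not tested. Of 20 genes listed as cytosolic heat shock chaperones, 7 fell and 0 rose. The list also holds the mitochondrial chaperones Hspd1 and Hspe1 and the transcription factor Hsf1. Those that fell included Hsph1, an HSP110 chaperone, at -0.71 ± 0.13 and Stip1, which links HSP70 to HSP90, at -0.42 ± 0.09 (adjusted p = 0.00281 and 0.00657 by edgeR). Of 18 circadian clock genes 1 fell and 3 rose. Nr1d1, the clock repressor, read 83.2, 72.4 and 95.1 CPM in WT mice 1 to 3 and 18.4 to 22.8 CPM in Homo mice 15 to 18, with a slope of -1.19 ± 0.15 (adjusted p = 0.00028 by edgeR). The summed clock genes gave 1180 to 1510 CPM in WT mice 1 to 3 and 1560 to 1900 CPM in the other 16 livers.

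Few cell type markers passed the test on mouse number, where 3.23% of all genes fell and 3.17% rose. At these shares, lists this short are expected to hold few or no calls. Of 8 hepatocyte markers 1 fell, Ttr at -0.28 ± 0.06 (adjusted p = 0.0113 by edgeR). With edgeR, 0 of 6 bile duct, 6 macrophage, 6 stellate cell, 5 endothelial and 4 tested plasma cell and B cell markers passed, with 0, 1, 0, 1 and 0 at an unadjusted p under 0.05, where 20.3% of all genes were. In Homo against WT livers 2 of the 6 bile duct markers were called, both higher, where 0.48% of all genes were called in either direction. They were Krt7 by 3.06 ± 0.40 log2 and Krt19 by 2.50 ± 0.40 log2 (adjusted p = 0.00043 and 0.00305 by edgeR). Of the 6 markers, 2 had log2 fold changes below 0, the lowest -0.642, and the median was 0.8. The part of bile duct markers in the genotype values above was not tested.

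**Figure D5:**
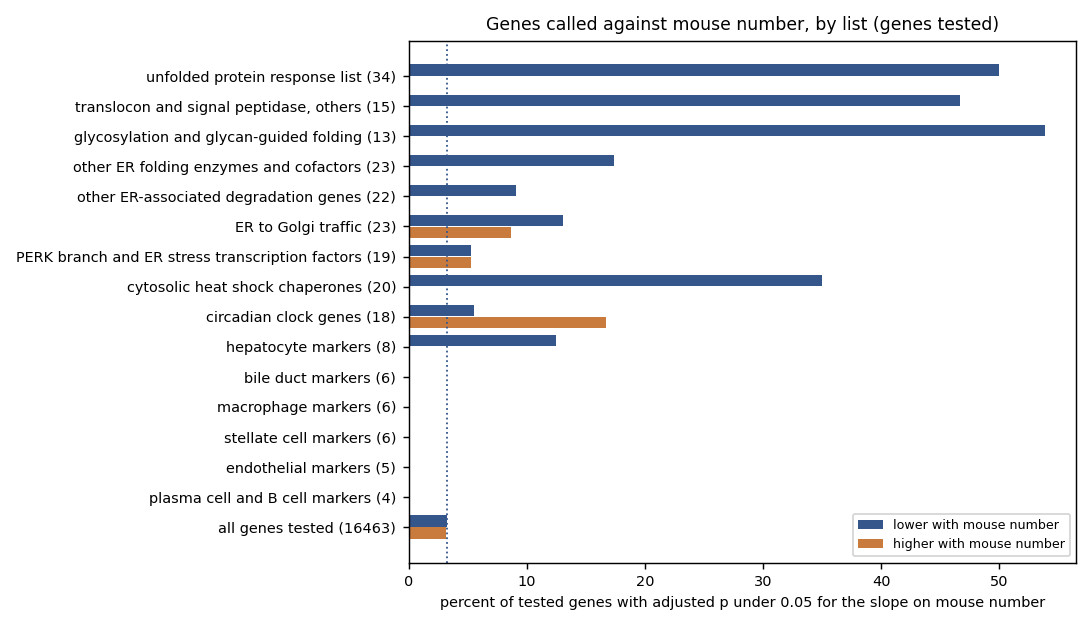
Percent of tested genes with an adjusted p under 0.05 from edgeR for the slope on mouse number, lower (blue) and higher (orange), for the 34 genes, 14 accompanying lists and all genes tested, with the number tested in parentheses. The dotted line marks the 3.23% of all genes that fell, and the 34 genes reach 50%. The 5 cell type lists from bile duct to plasma cell, with 4 to 6 genes tested each, are at 0%.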

How the data were processed

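RNA from 19 livers was sequenced with 1 library per mouse. The authors deposited raw counts per gene symbol; per the submitters' processing notes the tools were STAR 2.7.2b and featureCounts 1.6.4, with GRCm38 as genome build. The annotation, the strand setting and the handling of multiply mapped reads were not given in the sources used here. Of the members, 13 (Hsp90b1, Eif2ak3, Dnajb9, Sil1, Pdia3, Pdia4, Pdia6, Manf, Syvn1, Derl2, Sec61a1, Ppp1r15a and Spcs3) share exonic bases with another GENCODE gene, so some of their reads may be split or shared. Of the 35976 rows, 27 carry a date in place of a symbol (0.145% to 0.174% of counts); they stayed in the totals and none is reported.

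In R 4.3.3, edgeR 4.0.16 was run on the 19 libraries with TMM, filterByExpr (16463 genes), glmQLFit and glmQLFTest, two-sided, with Benjamini-Hochberg adjustment over all genes and a threshold of 0.05. The genotype fit held genotype alone; the slope fit added mouse number divided by 10; the difference of slopes was their interaction, with 2 degrees of freedom. SE is the coefficient divided by the square root of F. CPM use TMM library sizes, with a prior count of 2 on the log2 scale. Chi-square per degree of freedom between libraries of a genotype was at least 25.1 in Homo, 26 in Het and 22.4 in WT. P-values measure the spread between these mice. The scripts were tested on simulated data. Alternatives were DESeq2 1.42.0, limma 3.58.1 (voom with quality weights), DESeq2 size factors, other filters, subsets of mice and leaving out each library; the fits without mice 8, 17 and 19 were added after seeing the data.

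The members, 16 accompanying lists and tests were chosen with earlier results of these data known. Named are the 10 steepest called slopes, the sensors, Xbp1 and Hspa5, the 3 smallest p-values per genotype comparison and the 2 per list; other members are given to complete their group. A gene that this rule takes from the clock list is not reported here. Mitochondrially encoded genes and immunoglobulin constant genes are not used here. RefSeq promoters came as 27 entries for 26 members, and the last 25 bases of 24 entries were found in a GENCODE transcript of the gene.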

Additional observations from a re-analysis of the deposited data

Results flagged for a closer look

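In 5 of 102 groups of 1 gene and 1 genotype, a single liver stood apart from the others of its genotype by a Dixon gap test at the 95% level, which chance passes in about 0.05 of groups. Het mouse 4 was high for Dnajb9, at 31.9 CPM against 20.1 to 24.5 CPM in the other Het livers, and for Creld2, at 11.5 CPM against 4.29 to 6.96 CPM. WT mouse 1 was high for Sdf2l1, at 13.7 CPM against 5.14 to 8.74 CPM in the other WT livers, and for Derl1, at 29 CPM against 21 to 24.4 CPM. Homo mouse 18 was low for Pdia3, at 90 CPM against 110 to 119 CPM in the other Homo livers.

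The slope on mouse number differed between genotypes in edgeR's interaction test for Xbp1 (adjusted p = 0.0106), Dnajb9 (adjusted p = 0.00152), Herpud1 (adjusted p = 0.0156) and Syvn1 (adjusted p = 0.025). Without mice 8, 17 and 19 the adjusted p was 0.115 for Xbp1, 0.12 for Herpud1 and 0.141 for Syvn1, and Dnajb9 was the 1 member still called.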

How the results depend on the processing

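The labels give no litter, batch, sex or collection time, and mouse number cannot be read as any of these. The slope gave 17 called members among 1054 genes called in either direction. It gave 21 among 1735 with DESeq2 and 17 among 1085 with limma-voom. With no filter it gave 16 among 827, and with a filter of 1 CPM in 6 libraries 17 among 1155. A contrast of mice 8 to 20 against 1 to 7 in place of the slope gave 20 among 865. The slope gave 8 among 358 without mice 1 to 3 and 1 among 13 within mice 8 to 20. Within Het only and within Homo only it gave 0, where edgeR called 4 and 6 of all genes. These fits had fewer livers. Their median slopes over the members were -0.153 without mice 1 to 3 and -0.0418 within mice 8 to 20, against -0.244 in all livers. Within Het only the median was -0.229, and within Homo only -0.0556. Leaving out single libraries gave 11 to 18 called members. The difference of slopes gave 4 called members among 102 called genes in all livers and 1 among 24 without mice 8, 17 and 19. It gave 1 to 4 members when single libraries were left out. Het against WT gave 2 called members among 66 called genes within mice 1 to 7. Medians changed sign to 0.0625 for Het against WT without mice 1 to 3, 0.00801 for Homo against WT within mice 8 to 13 and 0.0927 for Homo against Het within mice 14 to 20. Without mice 1 to 3, Dnajb9 changed sign in Homo against WT (0.0749) and Het against WT (0.206), and so did Calr in Het against WT (0.0169). Within mice 8 to 13, Spcs2 (0.0149) and Dnajb9 (0.0186) changed sign in Homo against WT. Slopes changed sign for Xbp1 within WT only (0.287), Atf6 within Het only (-0.0829), Creld2 (0.105), Dnajb9 (0.117) and Eif2ak3 (0.0634) within Homo only, and Creld2 (0.177), Hyou1 (0.0139) and Eif2ak3 (0.0816) within mice 8 to 20. The cause was not tested. Of 307 alternatives for single members, 246 kept direction and side of the threshold, 40 lost and 8 gained a call, and 13 changed sign. No paired analysis was possible because the labels give no replicate numbers that the genotypes share.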
